A study of Mus musculus with 10 samples.

Results

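The genes described here are 10 markers of brain endothelium and of its barrier: Cldn5, Pecam1, Ly6c1, Slc2a1, Mfsd2a, Abcb1a, Slco1a4, Kdr, Flt1 and Tek. They were named as a list of symbols and matched to their Ensembl identifiers, which gave 10 of the 55536 genes in the count table. The list uses no measured value as its rule, but it was chosen with earlier results of these data known. All 10 passed the filter on low counts that left 20301 genes for testing. The RNA came from mouse primary somatosensory cortex and was bound to ribosomes carrying a GFP-tagged L10a protein. In this method, translating ribosome affinity purification (TRAP), the tag is made only in cells with Cre recombinase, and an antibody against GFP pulls the tagged ribosomes out of the homogenate. The study set side by side the cells marked by 3 receptor genes of the interleukin-17 family.

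Of the 10 libraries, 3 came from Il-17rb-Cre mice, 3 from Il-17ra-Cre mice and 4 from Il-17rc-Cre mice. In each group Cre is driven from the named receptor gene, and every mouse received the same Cre-dependent virus, AAV5-EF1α-Flex-EGFPL10a, in the region the labels call S1DZ. The virus was given at 400 nl per side, and tissue was taken 4 weeks later. Not given in the sources used here are the age, the strain and the number of mice behind a library, so a p-value reflects only how these libraries vary, which may be technical. The pulled-down RNA was set against RNA from the other drivers and not against whole tissue, which was not analysed here. Fewer marked cells of a type and less RNA per cell cannot be told apart in such data.

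Endothelial cells line the vessels of the brain and form a barrier there that differs from vessels elsewhere. Their neighbours are sealed by claudin-5, vesicle traffic is low, and carrier proteins in their membranes let in glucose and lipids while pumps send foreign compounds back to the blood. Growth and quiescence of the vessel are set by receptors for vascular endothelial growth factor (VEGF) and for the angiopoietins. Several of these genes are also used by other brain cells, among them the glucose carrier Slc2a1 in astrocytes.

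Sequencing depth ranged from 39692925 to 165844244 counts per library. Il-17ra-Cre replicate 3 was the deepest library and stood apart from the rest of its group. Its 8 markers of excitatory neurons summed to 6683 CPM (the count scaled to library size with the TMM factors of edgeR), against 1561 and 1789 CPM in Il-17ra-Cre replicates 1 and 2. As a check of the labels, Il17rc was at 1.03 to 3.19 CPM in Il-17rb-Cre, 21.4 to 41.2 CPM in Il-17ra-Cre and 20.3 to 39.9 CPM in Il-17rc-Cre libraries. Il17rb itself was at 0.614 to 0.872 CPM in libraries labelled Il-17rb-Cre, against 1.27 to 3.75 CPM in those labelled Il-17ra-Cre, and at 0.0667 to 2.72 CPM in those labelled Il-17rc-Cre. Il17ra was at 18.0 to 30.7 CPM in Il-17rb-Cre, 16.7 to 21.4 CPM in Il-17ra-Cre and 15.6 to 21.7 CPM in Il-17rc-Cre libraries. Neither of these transcripts was highest under its own label, and the Il17rc values of Il-17ra-Cre and Il-17rc-Cre overlapped. Endothelial markers beyond the list were uneven. Cdh5, the cadherin of endothelial junctions, did not exceed 1.34 CPM in any library, and the endothelial transcription factor Erg did not exceed 0.741 CPM. Esam, another junction protein, averaged 11.01 CPM in Il-17rb-Cre, 9.74 CPM in Il-17ra-Cre and 25.4 CPM in Il-17rc-Cre, and the secreted endothelial factor Egfl7 averaged 14.75, 8.92 and 14.73 CPM in that order, so not every endothelial marker was lowest in Il-17rb-Cre. Both were named after their values were seen.

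All 10 genes had their lowest group mean in Il-17rb-Cre libraries. Against Il-17ra-Cre, 5 of the 10 were lower in Il-17rb-Cre at an adjusted p below 0.05 (edgeR's quasi-likelihood test, Benjamini-Hochberg adjustment over all tested genes): Cldn5, Ly6c1, Slc2a1, Mfsd2a and Abcb1a. Among all tested genes 24.4% were lower in this comparison and 40.7% were called in either direction. The median log2 fold change of the 10 genes was -3.09, beside -0.09 over all tested genes. Against Il-17rc-Cre, 7 of the 10 were lower in Il-17rb-Cre, the same 5 with Pecam1 and Flt1, beside 21.9% of all tested genes lower and 39.7% called in either direction. Their median log2 fold change was -3.70, beside 0.02 over all tested genes. Kdr, Tek and Slco1a4 were called in no comparison by this fit. Slco1a4 was called lower in Il-17rb-Cre than in Il-17rc-Cre by DESeq2 (log2 fold change -4.61, DESeq2 adjusted p = 0.038), by edgeR on those groups alone (-4.60, edgeR adjusted p = 0.0159) and by edgeR without Il-17ra-Cre replicate 3 (-4.49, edgeR adjusted p = 0.0146). The comparisons share the Il-17rb-Cre libraries, so their counts are not independent of each other.

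The separation between libraries followed the same lines. The values of Il-17rb-Cre lay wholly below those of Il-17ra-Cre for 5 of the 10 genes, beside 29.2% of all tested genes. They lay wholly below those of Il-17rc-Cre for 9 of the 10, beside 25.5% (27.5% of all tested genes lay wholly above), and Kdr was the exception. Il-17rb-Cre replicate 1 held the lowest value of its group for all 10 genes, tied with replicate 3 at 0 for Abcb1a. Il-17ra-Cre replicate 3 held the lowest of its group for 8 genes, and Il-17rc-Cre replicate 2 the highest of its group for 9. Without Il-17ra-Cre replicate 3 the number lower in Il-17rb-Cre than in Il-17ra-Cre was 8, with Pecam1, Flt1 and Slco1a4 added (edgeR adjusted p = 0.0221, 0.0422 and 0.0245). Over all tested genes the number called in either direction here was 8268 and ran from 6541 to 9916 with 1 library left out.

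**Figure D1:**
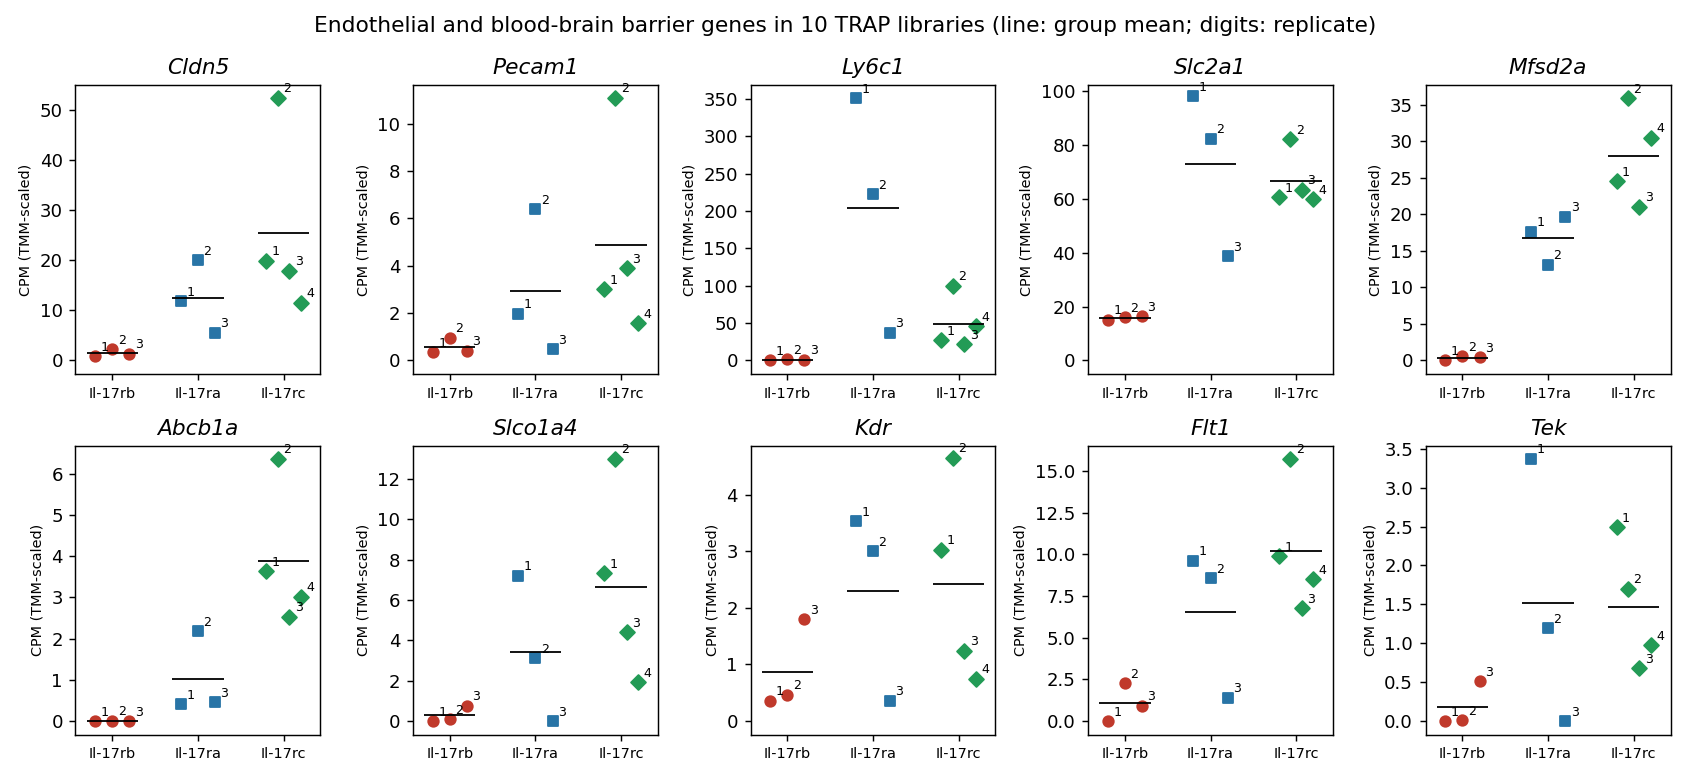
Level of each of the 10 genes in every library, as TMM-scaled CPM on a linear axis that differs between panels, with the Il-17rb-Cre, Il-17ra-Cre and Il-17rc-Cre libraries from left to right. Points are single libraries numbered by replicate and lines are group means; the Il-17rb-Cre points sit lowest on average in all 10 panels, and Il-17rc-Cre replicate 2 is the top point of its group in 9.

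The sequence just before the start of transcription is shown for 4 of the 5 genes that were lower in Il-17rb-Cre than in both other groups, the members called in both comparisons with Il-17rb-Cre. The runs are RefSeq promoter sequence of build GRCm38.p6, read 5′ to 3′ on the gene's strand and ending before the first transcribed base. Capitals mark CCAAT, the letters of the CCAAT box, or their complement ATTGG. The windows lie at chr16:18776597-18776846 on the plus strand for Cldn5 and chr4:122961189-122961438 on the minus strand for Mfsd2a. They lie at chr4:119108495-119108710 on the plus strand for Slc2a1 and chr15:75048838-75049087 on the minus strand for Ly6c1. The RefSeq start of Abcb1a lies 92986 bases from the start in the gene annotation used here, so its window is not printed.
Cldn5: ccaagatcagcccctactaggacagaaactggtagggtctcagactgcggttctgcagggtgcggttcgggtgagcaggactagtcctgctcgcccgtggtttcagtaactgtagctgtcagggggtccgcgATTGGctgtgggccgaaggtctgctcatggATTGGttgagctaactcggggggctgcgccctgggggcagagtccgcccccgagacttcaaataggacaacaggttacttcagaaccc
Mfsd2a: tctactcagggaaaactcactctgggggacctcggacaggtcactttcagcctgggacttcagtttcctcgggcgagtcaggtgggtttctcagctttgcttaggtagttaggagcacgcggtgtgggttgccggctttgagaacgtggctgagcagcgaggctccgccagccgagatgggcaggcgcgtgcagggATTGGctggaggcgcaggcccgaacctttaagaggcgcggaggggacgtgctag
Slc2a1: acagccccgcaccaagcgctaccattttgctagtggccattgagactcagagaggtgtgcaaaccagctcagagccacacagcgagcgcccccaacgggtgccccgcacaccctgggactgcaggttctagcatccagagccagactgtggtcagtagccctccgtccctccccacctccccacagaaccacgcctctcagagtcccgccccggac
Ly6c1: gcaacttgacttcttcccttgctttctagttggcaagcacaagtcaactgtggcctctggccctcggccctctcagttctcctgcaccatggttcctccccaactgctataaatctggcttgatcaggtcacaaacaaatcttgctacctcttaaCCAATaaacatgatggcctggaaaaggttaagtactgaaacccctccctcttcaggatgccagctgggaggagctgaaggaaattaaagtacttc
Over the 250 bases before the RefSeq start, searched on both strands, CCAAT was found for Cldn5, Mfsd2a and the Ly6c1 start shown. It was not found for Slc2a1, for Abcb1a or for another RefSeq start of Ly6c1. Of the 9 genes of the list with a window, 4 had it, namely Cldn5, Ly6c1, Mfsd2a and Slco1a4. CCAAT was found in 33.8% of 32851 promoter windows of that length. These matches are a description of the letters, and factor binding was not measured.

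Cldn5 (ENSMUSG00000041378, GRCm38 chromosome 16, 18776847 to 18778262) encodes claudin-5, the main sealing protein of the tight junctions of brain endothelium. It was at 0.770, 2.19 and 1.31 CPM in the Il-17rb-Cre replicates, 11.8, 19.9 and 5.50 CPM in the Il-17ra-Cre replicates and 19.8, 52.3, 17.9 and 11.5 CPM in the Il-17rc-Cre replicates. The Il-17rb-Cre values did not reach those of either other group, while the other groups overlapped. The log2 fold change was -3.11 ± 0.68 (SE) for Il-17rb-Cre against Il-17ra-Cre (edgeR adjusted p = 0.00471) and -4.15 ± 0.69 against Il-17rc-Cre (edgeR adjusted p = 0.00108). It had 297 reads over the Il-17rb-Cre libraries, more than any other gene of the list there but Slc2a1.

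Pecam1 (ENSMUSG00000020717, chromosome 11, 106654217 to 106750628) encodes CD31, an adhesion molecule of endothelial contacts that platelets and leukocytes also carry. Its level was 0.338, 0.961 and 0.415 CPM in Il-17rb-Cre, 1.97, 6.40 and 0.468 CPM in Il-17ra-Cre and 3.004, 11.1, 3.88 and 1.57 CPM in Il-17rc-Cre libraries. Il-17ra-Cre replicate 3 fell inside the range of the Il-17rb-Cre libraries, and the Il-17rc-Cre libraries were all above it. Pecam1 was lower in Il-17rb-Cre than in Il-17rc-Cre (log2 fold change -3.09 ± 0.97, edgeR adjusted p = 0.0283), but without Il-17rb-Cre replicate 1 or 3, or without Il-17rc-Cre replicate 2, this call was lost (edgeR adjusted p = 0.0946, 0.0914 and 0.0695). Against Il-17ra-Cre the log2 fold change of -2.35 ± 0.97 did not pass (edgeR adjusted p = 0.0784).

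Ly6c1 (ENSMUSG00000079018, chromosome 15, 75044018 to 75048830) encodes a membrane-anchored Ly6 protein found on brain endothelium and on some leukocytes of the mouse. It was at 0.113, 1.24 and 0.801 CPM in the Il-17rb-Cre replicates, 351, 222 and 37.1 CPM in the Il-17ra-Cre replicates and 26.6, 100.1, 21.3 and 45.5 CPM in the Il-17rc-Cre replicates. Within Il-17ra-Cre, replicate 3 lay inside the Il-17rc-Cre range and replicates 1 and 2 above it. Its log2 fold change of -8.11 ± 1.17 for Il-17rb-Cre against Il-17ra-Cre (edgeR adjusted p = 4.90e-04) compares with -6.04 ± 1.05 against Il-17rc-Cre (edgeR adjusted p = 0.00142). For Il-17ra-Cre against Il-17rc-Cre its log2 fold change of 2.07 ± 0.79 did not pass (edgeR adjusted p = 0.195). Without Il-17ra-Cre replicate 3 the value was 2.57 and passed (edgeR adjusted p = 0.037).

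Reads can be shared between Ly6c1 and its relatives. Of the 50-base stretches in its transcripts, 32.8% also occur in another gene, mostly Ly6c2, Ly6a and Ly6i, so the Ly6c1 counts are uncertain. Ly6c2, the nearest relative, was at 0.488, 0.320 and 0.0429 CPM in Il-17rb-Cre, 5.66, 15.8 and 14.02 CPM in Il-17ra-Cre and 0.453, 2.75, 0.480 and 5.10 CPM in Il-17rc-Cre libraries. It was lower in Il-17rb-Cre than in Il-17ra-Cre (log2 fold change -5.39 ± 1.16, edgeR adjusted p = 0.00453) and Il-17rc-Cre (-2.97 ± 1.03, edgeR adjusted p = 0.0425). Ly6a, the stem cell antigen that endothelium also carries, was at 1.71 to 4.69 CPM in Il-17rb-Cre, 335 to 664 CPM in Il-17ra-Cre and 118 to 459 CPM in Il-17rc-Cre libraries.

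Slc2a1 (ENSMUSG00000028645, chromosome 4, 119108711 to 119137983) encodes GLUT1, the carrier that brings glucose across the barrier. It had 15.2, 16.0 and 16.5 CPM in Il-17rb-Cre, 98.2, 82.4 and 38.8 CPM in Il-17ra-Cre and 60.6, 82.2, 63.4 and 59.9 CPM in Il-17rc-Cre libraries. It was the only one of the 10 genes above 3 CPM in the Il-17rb-Cre libraries, and it was nearly level across them. The log2 fold change was -2.20 ± 0.30 for Il-17rb-Cre against Il-17ra-Cre (edgeR adjusted p = 3.84e-04) and -2.07 ± 0.29 against Il-17rc-Cre (edgeR adjusted p = 3.90e-04), the smallest among the genes called in both comparisons. About 2.995% of its exonic length overlaps Gm12868 on the opposite strand, and reads there cannot be assigned without strand.

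Mfsd2a (ENSMUSG00000028655, chromosome 4, 122946850 to 122961188) encodes the carrier for lysophospholipids with docosahexaenoic acid, which also keeps transcytosis low in brain endothelium. Its level was 0.0563, 0.601 and 0.400 CPM in Il-17rb-Cre, 17.6, 13.1 and 19.7 CPM in Il-17ra-Cre and 24.6, 35.9, 21.1 and 30.5 CPM in Il-17rc-Cre libraries. The 3 groups did not overlap, and the order from low to high was Il-17rb-Cre, Il-17ra-Cre and Il-17rc-Cre. Mfsd2a had the smallest adjusted p of the list against both groups, with log2 fold changes of -5.53 ± 0.60 against Il-17ra-Cre (edgeR adjusted p = 9.74e-05) and -6.27 ± 0.61 against Il-17rc-Cre (edgeR adjusted p = 4.08e-05). For Il-17ra-Cre against Il-17rc-Cre its log2 fold change was -0.74 ± 0.45 and did not pass (edgeR adjusted p = 0.442). It was the only gene of the 10 that was highest of its group in Il-17ra-Cre replicate 3.

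Abcb1a (ENSMUSG00000040584, chromosome 5, 8660077 to 8748575) encodes P-glycoprotein, the pump that returns many drugs to the blood. It had 0, 1 and 0 reads in the Il-17rb-Cre replicates, 15, 82 and 79 reads in the Il-17ra-Cre replicates and 177, 460, 190 and 213 reads in the Il-17rc-Cre replicates. These are 0, 0.0134 and 0 CPM in Il-17rb-Cre, 0.404, 2.18 and 0.463 CPM in Il-17ra-Cre and 3.64, 6.36, 2.54 and 3.02 CPM in Il-17rc-Cre, and the 3 groups did not overlap. It was lower in Il-17rb-Cre than in Il-17ra-Cre (edgeR adjusted p = 7.05e-04) and Il-17rc-Cre (edgeR adjusted p = 1.78e-04). With 1 read in Il-17rb-Cre the size is poorly known: the pooled ratio of Il-17rb-Cre to Il-17ra-Cre was 0.00704, with an exact 95% counting interval of 1.77e-04 to 0.0397, and that of Il-17rb-Cre to Il-17rc-Cre was 0.00129, with an interval of 3.27e-05 to 0.00722. Such intervals cover counting error only, since amplified reads are not independent molecules. About 10.1% of its exonic length overlaps Gm42686, and 22.5% of its 50-base stretches recur elsewhere, mostly in its paralog Abcb1b.

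Abcb1b, the second P-glycoprotein gene of the mouse, was seen in every library. It was at 0.657, 0.667 and 0.8291 CPM in Il-17rb-Cre, 1.32, 3.34 and 3.48 CPM in Il-17ra-Cre and 1.32, 1.56, 3.06 and 1.13 CPM in Il-17rc-Cre libraries. It was lower in Il-17rb-Cre than in Il-17ra-Cre (log2 fold change -1.92 ± 0.52, edgeR adjusted p = 0.0148), and the difference from Il-17rc-Cre (-1.30 ± 0.49) did not pass (edgeR adjusted p = 0.0591). Abcb1b thus had more reads than Abcb1a in Il-17rb-Cre, 143 against 1, and in Il-17ra-Cre, 770 against 176, and fewer in Il-17rc-Cre, 486 against 1040.

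Slco1a4 (ENSMUSG00000030237, chromosome 6, 141805440 to 141856199) encodes an organic anion transporter of the rodent barrier. It was at 0, 0.0934 and 0.772 CPM in Il-17rb-Cre, 7.20, 3.10 and 0 CPM in Il-17ra-Cre and 7.325, 12.99, 4.40 and 1.93 CPM in Il-17rc-Cre libraries. The 0 in Il-17ra-Cre replicate 3 came from the deepest library, where 3 counts would be 0.0176 CPM, and it lies below an Il-17rb-Cre library. Neither the log2 fold change of -3.54 ± 1.79 against Il-17ra-Cre nor that of -4.50 ± 1.82 against Il-17rc-Cre passed (edgeR adjusted p = 0.141 and 0.0744). The related Slco1a5 had no read in any Il-17rb-Cre library, 241 reads over Il-17ra-Cre and 181 over Il-17rc-Cre. With a floor of 3 counts over the Il-17rb-Cre group, Slco1a5 was 64.8-fold lower there than in Il-17ra-Cre (edgeR adjusted p = 5.45e-04). Against Il-17rc-Cre it was 44.9-fold lower (edgeR adjusted p = 8.65e-04). The exact 95% counting intervals reached smaller differences, 52.3-fold against Il-17ra-Cre and 36.1-fold against Il-17rc-Cre.

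Kdr (ENSMUSG00000062960, chromosome 5, 75932827 to 75978458) encodes VEGF receptor 2, through which VEGF drives vessel growth. Kdr was at 0.357, 0.467 and 1.80 CPM in Il-17rb-Cre, 3.53, 2.999 and 0.357 CPM in Il-17ra-Cre and 3.02, 4.65, 1.24 and 0.751 CPM in Il-17rc-Cre libraries. Every pair of groups overlapped, and Il-17rb-Cre replicate 3 was above 2 of the Il-17rc-Cre libraries. The log2 fold changes of -1.38 ± 0.96 against Il-17ra-Cre and -1.46 ± 0.92 against Il-17rc-Cre did not pass (edgeR adjusted p = 0.281 and 0.234).

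Flt1 (ENSMUSG00000029648, chromosome 5, 147561604 to 147726011) encodes VEGF receptor 1, which binds VEGF tightly and signals weakly. Flt1 was at 0, 2.26 and 0.929 CPM in Il-17rb-Cre, 9.62, 8.57 and 1.41 CPM in Il-17ra-Cre and 9.88, 15.7, 6.77 and 8.50 CPM in Il-17rc-Cre libraries. The Il-17rc-Cre values lay wholly above those of Il-17rb-Cre, and Il-17ra-Cre replicate 3 lay among the Il-17rb-Cre values. Flt1 was lower in Il-17rb-Cre than in Il-17rc-Cre (log2 fold change -3.25 ± 1.13, edgeR adjusted p = 0.0423), close to the threshold. Leaving out any 1 of 6 libraries (Il-17ra-Cre replicate 2, Il-17rb-Cre replicate 3 and each Il-17rc-Cre replicate) lost the call, with edgeR adjusted p-values up to 0.118. The log2 fold change of -2.60 ± 1.13 against Il-17ra-Cre did not pass (edgeR adjusted p = 0.0913).

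Tek (ENSMUSG00000006386, chromosome 4, 94739289 to 94874976) encodes TIE2, the receptor of the angiopoietins, which keep vessels quiescent or loosen them. Tek had 0, 1 and 36 reads in Il-17rb-Cre, 125, 45 and 0 reads in Il-17ra-Cre and 121, 123, 51 and 69 reads in Il-17rc-Cre libraries. It was at 0, 0.0134 and 0.515 CPM in Il-17rb-Cre, 3.37, 1.19 and 0 CPM in Il-17ra-Cre and 2.49, 1.70, 0.681 and 0.977 CPM in Il-17rc-Cre. Tek shares with Slco1a4 the 0 in the deepest library. Its log2 fold changes of -3.07 ± 1.84 against Il-17ra-Cre and -3.02 ± 1.78 against Il-17rc-Cre did not pass (edgeR adjusted p = 0.209 and 0.203).

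**Figure D2:**
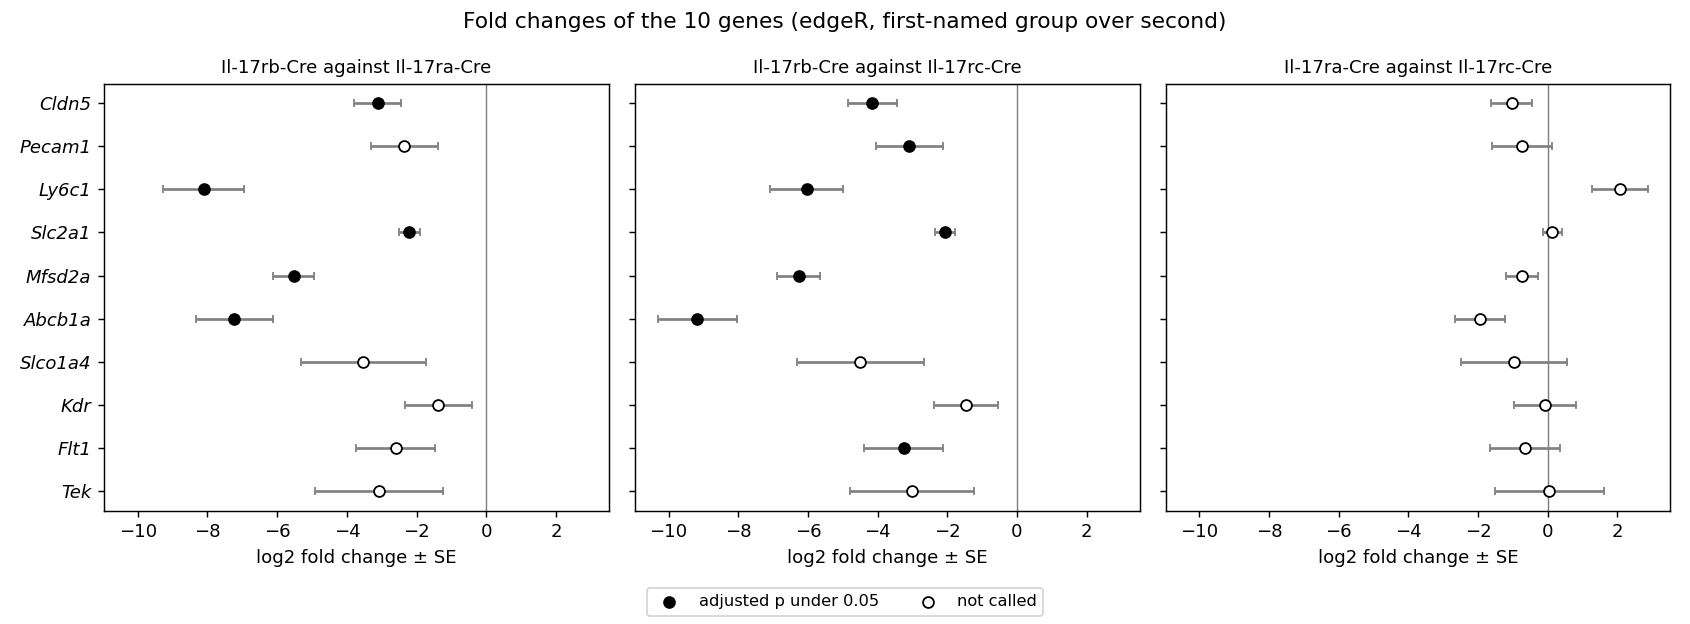
Log2 fold change of each gene (edgeR), with a standard error derived from the F value of its test, first-named group over second. Panels show Il-17rb-Cre against Il-17ra-Cre, Il-17rb-Cre against Il-17rc-Cre and Il-17ra-Cre against Il-17rc-Cre. Filled points have an adjusted p below 0.05. Filled points number 5 in the left panel and 7 in the middle panel, all left of the zero line, and none in the right panel.

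Il-17ra-Cre and Il-17rc-Cre were then compared directly. None of the 10 genes was called by edgeR, beside 2.18% of all tested genes (1.38% higher and 0.798% lower), and the smallest adjusted p was 0.174, for Abcb1a (log2 fold change -1.95 ± 0.71). At an unadjusted p below 0.05, 2 of the 10 passed, Abcb1a lower and Ly6c1 higher in Il-17ra-Cre, beside 3730 of all 20301 tested genes. DESeq2 called 1 of the 10, Abcb1a (log2 fold change -2.01, DESeq2 adjusted p = 0.0415). Limma voom with quality weights called 1, Ly6c1 (2.89, limma adjusted p = 0.00218). Over all 20301 tested genes, DESeq2 called 2101 and limma voom 4579. By edgeR the median log2 fold change of the 10 genes was -0.69, beside 0.03 over all tested genes. Abcb1a and Mfsd2a had every Il-17ra-Cre value below every Il-17rc-Cre value, 2 of the 10 beside 6.65% of all tested genes. No gene of the list had the opposite order, beside 7.92% of all tested genes. A difference that did not pass does not show that levels were alike: the interval of one standard error around Slc2a1 ran near zero (0.14 ± 0.27), whereas that around Tek was wide (0.05 ± 1.57).

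The order of the genes among themselves was read from CPM per kilobase of exon. In Il-17rb-Cre libraries it was led by Slc2a1 at 4.53 ± 0.19 (mean ± SD, n = 3), followed by Cldn5 at 1.006 ± 0.506, Ly6c1 at 0.428 ± 0.339 and Mfsd2a at 0.157 ± 0.122. In Il-17ra-Cre libraries Ly6c1 led at 121 ± 94.1 (n = 3), with Slc2a1 at 20.9 ± 8.78, Cldn5 at 8.76 ± 5.12 and Mfsd2a at 7.47 ± 1.504. Ly6c1 also led in Il-17rc-Cre libraries, at 28.8 ± 21.5 (n = 4), but Slc2a1 at 19.0 ± 3.02 and Cldn5 at 17.9 ± 12.9 lay within its spread, and Mfsd2a followed at 12.4 ± 2.92. The same 4 genes filled the upper 4 places in every group. Below them came the other 6, with group means of at most 1.04 CPM per kilobase, with Kdr last in Il-17rc-Cre and Abcb1a last in Il-17rb-Cre and Il-17ra-Cre. In Il-17rc-Cre the step within these 6 that exceeded the spread lay between Abcb1a at 0.710 ± 0.312 and Tek at 0.310 ± 0.171, and the other neighbours differed by less than their SD.

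The make-up of the signal differed in the same sense. Slc2a1 gave 67.1% to 90.3% of the reads of the 10 genes in Il-17rb-Cre libraries, 19.5% to 37.4% in Il-17ra-Cre and 25.4% to 44.3% in Il-17rc-Cre. Ly6c1 gave 0.671% to 5.21% in Il-17rb-Cre, 35.7% to 69.5% in Il-17ra-Cre and 14.9% to 31.0% in Il-17rc-Cre libraries. The Ly6c1 shares of the 3 groups did not overlap. Set against Cldn5, a pair chosen after the values were seen, Ly6c1 had 14.6, 56.7 and 60.9 reads per 100 Cldn5 reads in Il-17rb-Cre, 2990, 1110 and 674 in Il-17ra-Cre and 134, 191, 119 and 396 in Il-17rc-Cre libraries. Cldn5 gave 4.59% to 9.19%, 2.33% to 5.51% and 7% to 16.2% of the reads in Il-17rb-Cre, Il-17ra-Cre and Il-17rc-Cre.

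**Figure D3:**
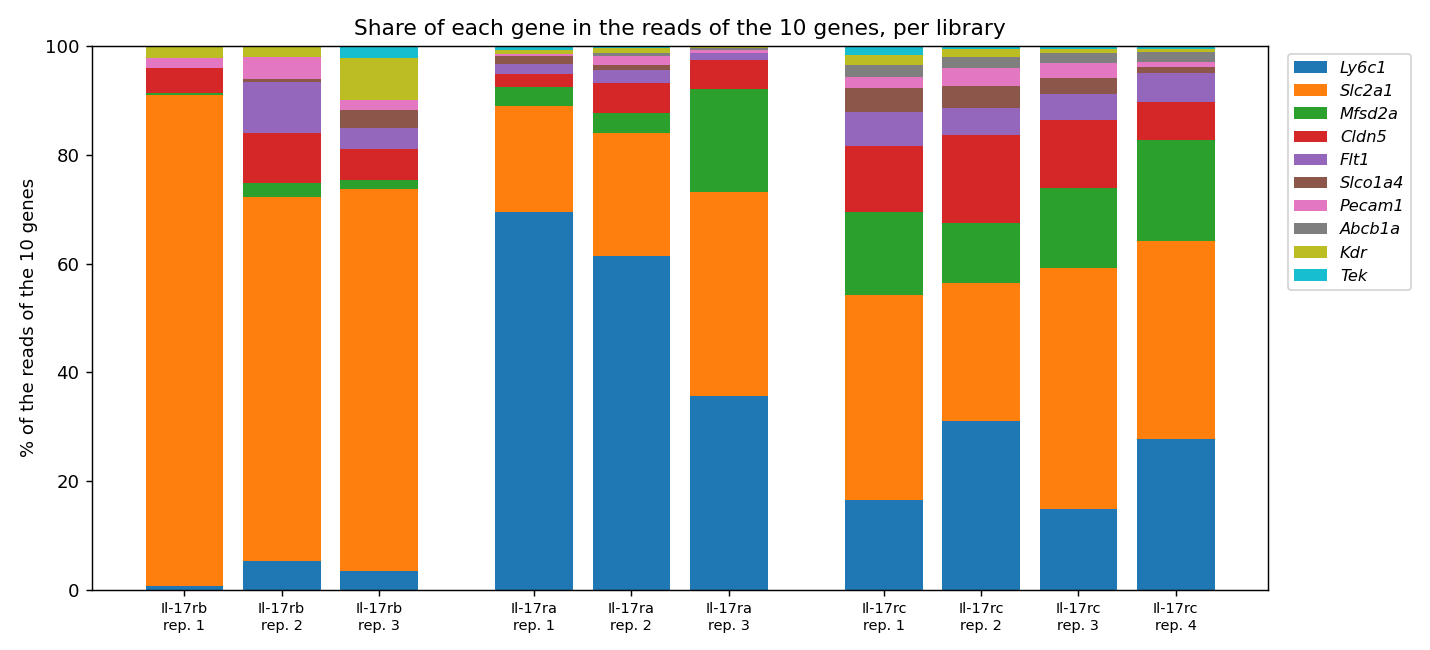
Share of each of the 10 genes in their summed reads, in percent, for every library, with Il-17rb-Cre, Il-17ra-Cre and Il-17rc-Cre libraries from left to right. Slc2a1 fills 67.1% to 90.3% of the Il-17rb-Cre bars, and Ly6c1 fills 35.7% to 69.5% of the Il-17ra-Cre bars.

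Other genes of endothelium and its barrier were read from lists. Of 18 other endothelial markers, 7 were lower in Il-17rb-Cre than in Il-17ra-Cre and 11 were lower than in Il-17rc-Cre, with median log2 fold changes of -3.15 and -4.10. For this and the following lists, the shares of all tested genes in Il-17rb-Cre were 24.4% lower and 16.4% higher against Il-17ra-Cre. They were 21.9% lower and 17.7% higher against Il-17rc-Cre. For Il-17ra-Cre against Il-17rc-Cre the shares were 0.798% lower and 1.38% higher. The most abundant were S1pr1, the sphingosine-1-phosphate receptor, which astrocytes also make, at 9.33 to 12.8 CPM in Il-17rb-Cre, 132 to 158 CPM in Il-17ra-Cre and 359.7 to 687 CPM in Il-17rc-Cre, and Ly6a. S1pr1 was lower in Il-17rb-Cre than in both (log2 fold changes -3.79 ± 0.26 and -5.65 ± 0.28, edgeR adjusted p = 8.62e-06 and 1.14e-06). It was also lower in Il-17ra-Cre than in Il-17rc-Cre (-1.86 ± 0.23, edgeR adjusted p = 0.0155), the only gene of that list called there. Pltp, the phospholipid transfer protein, was at 1.44 to 4.42, 29.3 to 40.5 and 61.8 to 95.8 CPM in Il-17rb-Cre, Il-17ra-Cre and Il-17rc-Cre, and its log2 fold changes of -3.44 ± 0.38 and -4.66 ± 0.39 for Il-17rb-Cre passed (edgeR adjusted p = 1.07e-04 and 1.63e-05).

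Of 14 other genes of tight junctions and adhesion, 6 were lower and 1 higher in Il-17rb-Cre against Il-17ra-Cre, and 10 were lower and 1 higher against Il-17rc-Cre (median log2 fold changes -2.28 and -2.82). Tjp1, the scaffold protein ZO-1, averaged 13.8 CPM in Il-17rb-Cre, 73.7 CPM in Il-17ra-Cre and 69.1 CPM in Il-17rc-Cre. Jam2, a junctional adhesion molecule, averaged 1.92 CPM in Il-17rb-Cre, 52.3 CPM in Il-17ra-Cre and 93.2 CPM in Il-17rc-Cre. Both were called lower in Il-17rb-Cre in each comparison, with edgeR adjusted p-values of at most 4.55e-04. The gene that was higher was Cd34, a sialomucin of vessels and progenitor cells, at 85.8 CPM in Il-17rb-Cre, 13.97 CPM in Il-17ra-Cre and 20.8 CPM in Il-17rc-Cre (log2 fold changes 2.62 and 2.05, edgeR adjusted p = 4.48e-05 and 7.19e-05), named after its value was seen.

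Among 15 other barrier transporters, 6 were lower in Il-17rb-Cre than in Il-17ra-Cre and 7 lower than in Il-17rc-Cre (median log2 fold changes -1.07 and -1.88), beside 24.4% and 21.9% of all tested genes. Slc3a2, the heavy chain of several amino acid exchangers, averaged 97.6 CPM in Il-17rb-Cre, 201 CPM in Il-17ra-Cre and 359 CPM in Il-17rc-Cre. Its log2 fold change for Il-17ra-Cre against Il-17rc-Cre was -0.83 ± 0.14 (edgeR adjusted p = 0.0375). Slc16a1, the monocarboxylate carrier MCT1, averaged 13.3, 94.2 and 84.4 CPM, and Slc38a3, a glutamine carrier, 4.78, 104 and 211 CPM in Il-17rb-Cre, Il-17ra-Cre and Il-17rc-Cre. Both were lower in Il-17rb-Cre in each comparison (edgeR adjusted p of at most 4.06e-04). The 3 transporters lower in Il-17ra-Cre than in Il-17rc-Cre were Slc3a2, its partner Slc7a5 and Slco1c1, a thyroid hormone carrier, of which Slc7a5 and Slco1c1 were named after their values were seen.

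Of 15 other genes of VEGF and angiopoietin signalling, 8 were lower in Il-17rb-Cre than in Il-17ra-Cre and 11 lower than in Il-17rc-Cre (median log2 fold changes -1.78 and -1.94, unchanged with Dll4, which had no read in Il-17rb-Cre, set at its bound). The ligand genes Vegfa and Vegfb averaged 22.2 and 66.95 CPM in Il-17rb-Cre, 32.1 and 64.5 CPM in Il-17ra-Cre and 63.55 and 117.1 CPM in Il-17rc-Cre. Both were lower in Il-17rb-Cre than in Il-17rc-Cre (log2 fold changes -1.52 ± 0.25 and -0.81 ± 0.26, edgeR adjusted p = 9.14e-04 and 0.0323) and neither passed against Il-17ra-Cre (edgeR adjusted p = 0.117 and 0.895). Nrp1, a VEGF co-receptor that neurons also use, averaged 18.9, 27.2 and 18.1 CPM in Il-17rb-Cre, Il-17ra-Cre and Il-17rc-Cre and was called in no comparison. Of 13 tested endothelial transcription factors, 8 and 11 were lower in Il-17rb-Cre than in Il-17ra-Cre and Il-17rc-Cre (median log2 fold changes -2.32 and -4.05). Ets1, an ETS factor, averaged 0.642, 11.3 and 18.4 CPM in the 3 groups in that order, and Lmo2, a partner of haematopoietic and endothelial factors, 9.98, 24.5 and 24.9 CPM.

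The Wnt pathway that builds the barrier gave 6 and 8 of 11 genes lower in Il-17rb-Cre than in Il-17ra-Cre and Il-17rc-Cre (median log2 fold changes -1.69 and -3.13). Its ligand Wnt7b averaged 9.11 CPM in Il-17rb-Cre, 29.3 CPM in Il-17ra-Cre and 120.5 CPM in Il-17rc-Cre, and the ligand Wnt7a 1.83, 25.7 and 45.8 CPM. These ligands are made by glia and neurons, and the endothelial receptor parts act on the other side. Wnt7b was lower in Il-17ra-Cre than in Il-17rc-Cre (log2 fold change -2.04 ± 0.40, edgeR adjusted p = 0.0399), as was the co-receptor partner Tspan12 (-1.26 ± 0.26, edgeR adjusted p = 0.0435). Of 8 genes of caveolae and transcytosis, 4 and 5 were lower in Il-17rb-Cre (median log2 fold changes -1.41 and -1.78). Plvap, the diaphragm protein of fenestrated vessels and a mark of a leaky barrier, had another order of groups. It was at 54.1, 50.1 and 44.7 CPM in Il-17rb-Cre, 195, 181 and 72.1 CPM in Il-17ra-Cre and 23.7, 31.8, 22.3 and 35.1 CPM in Il-17rc-Cre libraries, and it was higher in Il-17ra-Cre than in Il-17rc-Cre (log2 fold change 2.40 ± 0.31, edgeR adjusted p = 0.0185). Cav2, a caveolin, was lower there (-1.25 ± 0.15, edgeR adjusted p = 0.0154).

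Activation, vein and artery genes were mixed. Of 6 tested activation and vein genes, 3 were lower and 1 higher in Il-17rb-Cre against Il-17ra-Cre, and 3 were lower against Il-17rc-Cre (median log2 fold changes -2.57 and -3.47); without Il-17rc-Cre replicate 2 the last count was 3 lower and 2 higher. The adhesion molecules Vcam1 and Icam1, which inflamed endothelium shows to leukocytes, averaged 2.89 and 1.74 CPM in Il-17rb-Cre, 310 and 57.6 CPM in Il-17ra-Cre and 482 and 111 CPM in Il-17rc-Cre. Among 7 tested artery genes, 2 and 3 were lower and 1 higher in Il-17rb-Cre (median log2 fold changes -0.63 and -2.21), near the 24.4% lower and 16.4% higher of all tested genes in the first comparison. The genes lower against Il-17ra-Cre were Hey1 and Mgp, the most abundant of the list (means of 144.1 and 18.33 CPM over the 10 libraries). Without Il-17ra-Cre replicate 3 the first count of lower genes was 1. The gene that was higher was Efnb2, ephrin-B2, at 19.3, 7.22 and 8.78 CPM in Il-17rb-Cre, Il-17ra-Cre and Il-17rc-Cre (log2 fold changes 1.41 ± 0.36 and 1.14 ± 0.33, edgeR adjusted p = 0.0102 and 0.019). For Il-17ra-Cre against Il-17rc-Cre, edgeR called no gene of the junction, VEGF, transcription factor, activation and vein, and artery lists. Of their 14, 15, 13, 6 and 7 tested genes, 4, 7, 6, 2 and 2 had an unadjusted p below 0.05. Over all tested genes 3730 of 20301 had one. Without Il-17ra-Cre replicate 3, edgeR called 3, 4, 1 and 3 genes of the junction, VEGF, activation and vein, and artery lists in this comparison. Over all tested genes edgeR called 2886 of 21073 in that fit. Without Il-17rc-Cre replicate 2 it called 2 of the VEGF and 1 of the artery list. Over all tested genes the number called between Il-17ra-Cre and Il-17rc-Cre was 443 and ran between 0 and 2886 when 1 library was left out, which bears on each gene named as called there.

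**Figure D4:**
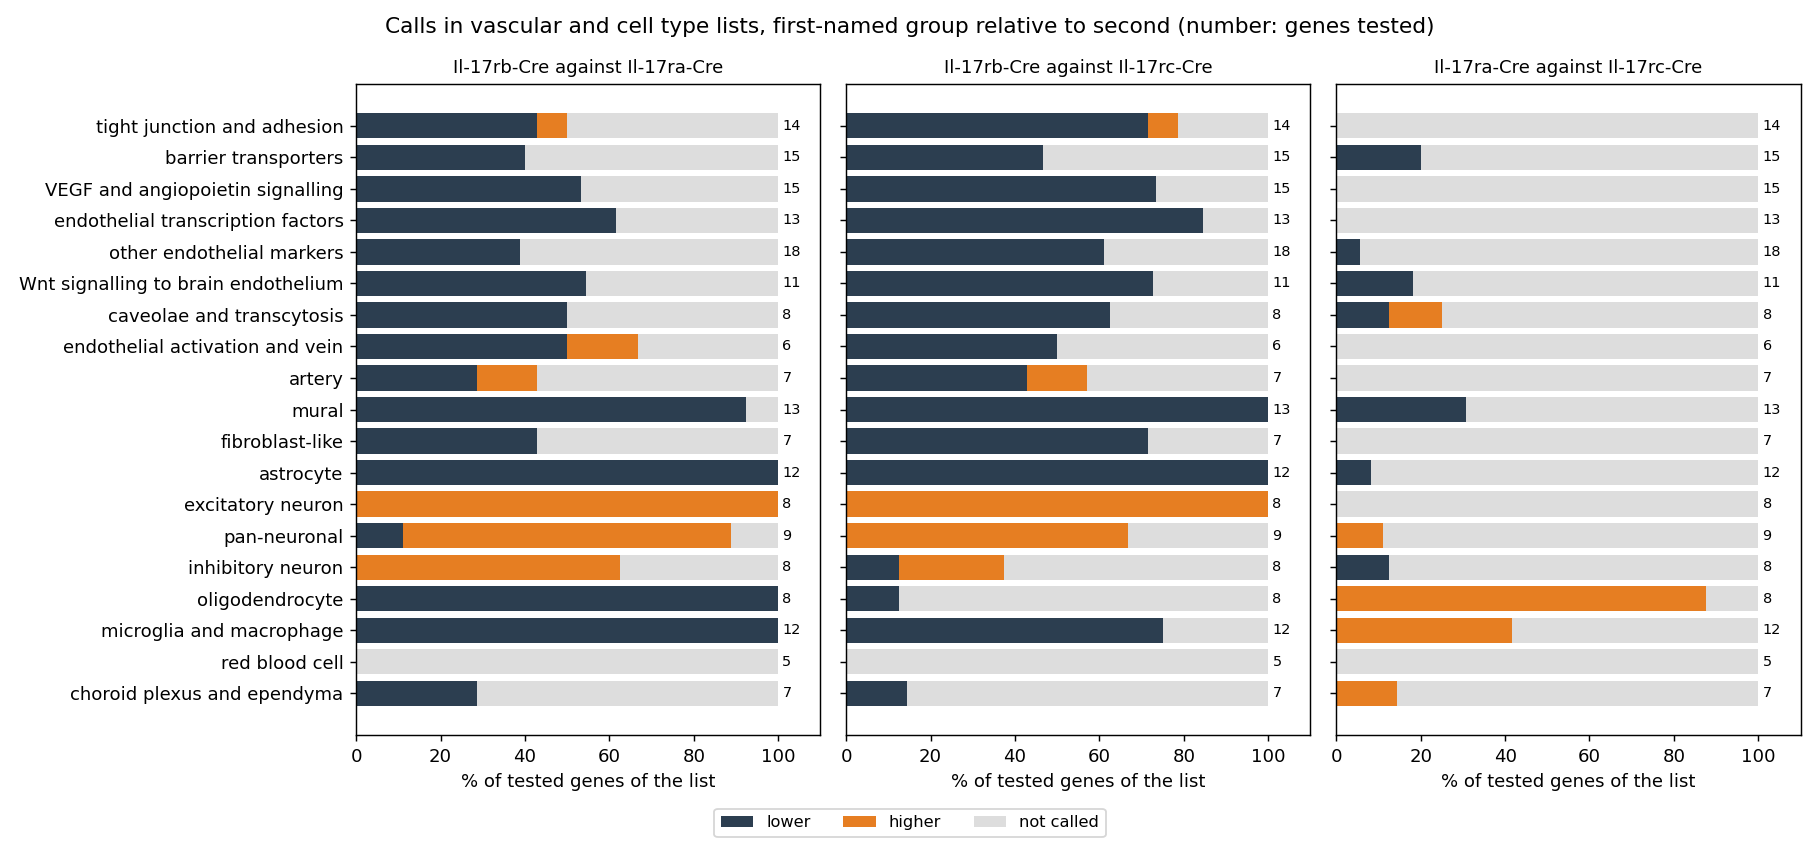
Percent of the tested genes of each list called lower (dark), higher (orange) or not called (grey) by edgeR, first-named group relative to second, with the number tested beside each bar. In the left and middle panels the astrocyte bars are wholly dark at 12 of 12 genes and the excitatory neuron bars wholly orange at 8 of 8.

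Markers of other cells moved with the 10 genes. The 10 genes summed to 16.8 to 23.8 CPM in Il-17rb-Cre, 104 to 505 CPM in Il-17ra-Cre and 143 to 323 CPM in Il-17rc-Cre libraries. All 12 astrocyte markers were lower in Il-17rb-Cre in both comparisons, with summed levels of 630.1 to 671 CPM in Il-17rb-Cre, 7473 to 14620 CPM in Il-17ra-Cre and 12650 to 19680 CPM in Il-17rc-Cre. Aqp4, the water channel of the astrocyte endfeet that wrap vessels, was at 3.44 to 8.16 CPM, 171 to 304 CPM and 353 to 463 CPM in the 3 groups in that order. The part of astrocyte RNA in the levels of the 10 genes was not tested.

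Mural cells, the pericytes and smooth muscle cells on the outer face of the vessel, showed the same order of groups. Of 13 mural markers, 12 were lower in Il-17rb-Cre than in Il-17ra-Cre and 13 lower than in Il-17rc-Cre, and 4 were lower in Il-17ra-Cre than in Il-17rc-Cre. Their summed level was 5.31 to 11.6 CPM in Il-17rb-Cre, 229 to 235 CPM in Il-17ra-Cre and 577 to 1293 CPM in Il-17rc-Cre. Pdgfrb, the receptor that defines pericytes, was at 0 in Il-17rb-Cre replicates 1 and 2 and at 0.172 CPM in replicate 3. It was at 8.12 to 9.54 CPM in Il-17ra-Cre and 25.3 to 47.9 CPM in Il-17rc-Cre libraries. Vtn and Rgs5, further pericyte markers, averaged 2.27 and 2.63 CPM in Il-17rb-Cre, 82.7 and 39.8 CPM in Il-17ra-Cre and 356 and 178 CPM in Il-17rc-Cre. Their part in the results of the 10 genes was not tested.

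**Figure D5:**
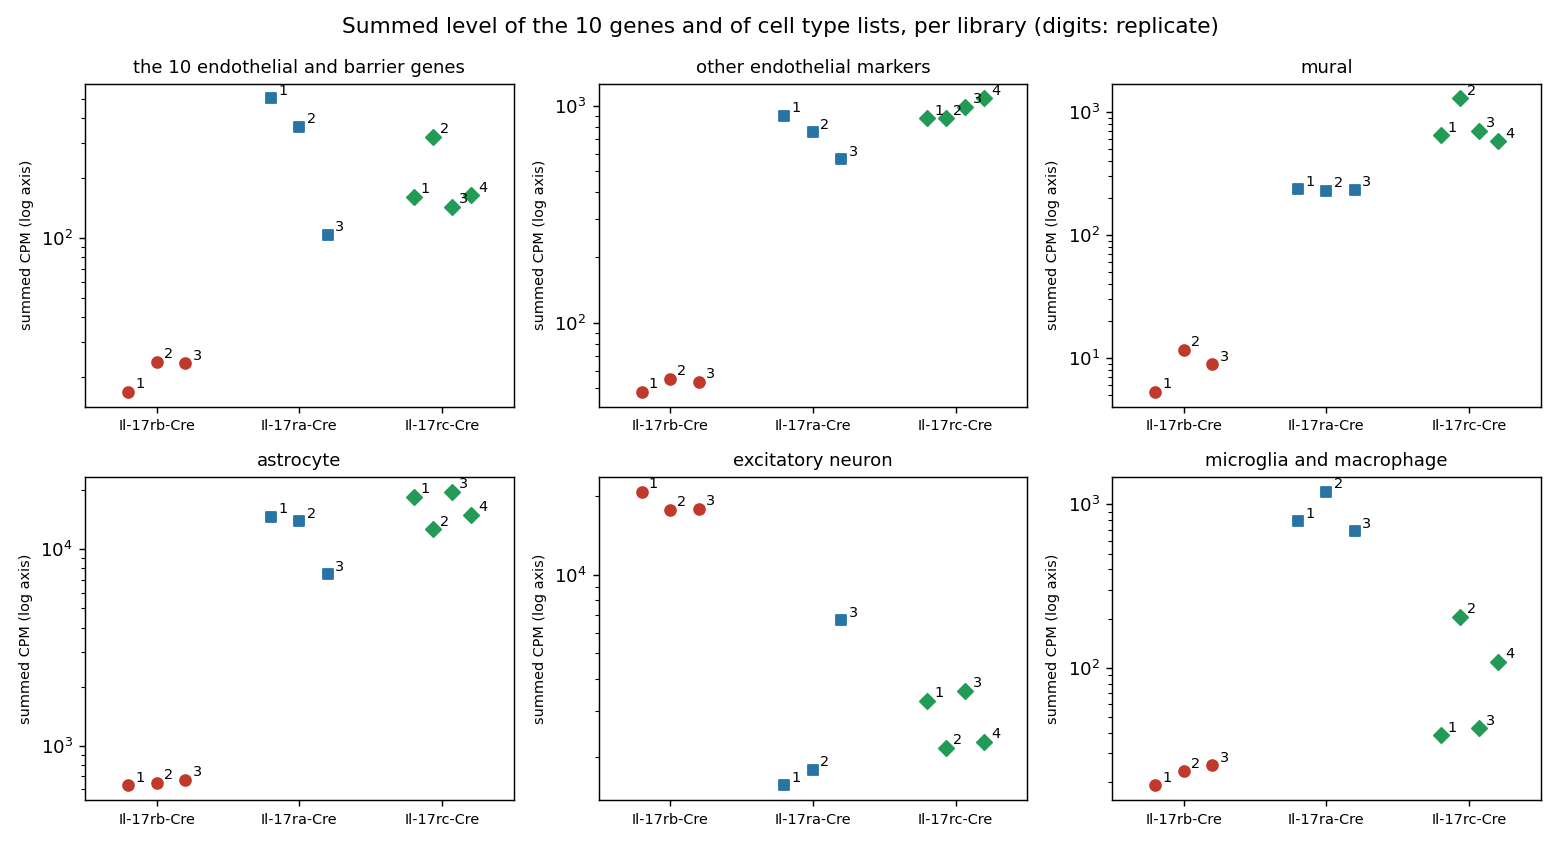
Summed CPM on a log axis of the 10 genes and of 5 marker lists in every library, with the Il-17rb-Cre, Il-17ra-Cre and Il-17rc-Cre libraries from left to right, numbered by replicate. The 10 genes, the other endothelial markers and the mural, astrocyte and microglial lists are lowest in Il-17rb-Cre, and the excitatory neuron list is highest there, at 17770 to 20820 CPM.

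Markers of excitatory neurons ran the other way. All 8 were higher in Il-17rb-Cre in both comparisons, with summed levels of 17770 to 20820 CPM in Il-17rb-Cre, 1561 to 6683 CPM in Il-17ra-Cre and 2170 to 3585 CPM in Il-17rc-Cre. Slc17a7, the vesicular glutamate transporter, was at 1502 to 2337 CPM, 167 to 622 CPM and 327 to 427 CPM in the 3 groups in that order. Microglia and macrophage markers were lower in Il-17rb-Cre for 12 of 12 genes against Il-17ra-Cre and 9 of 12 against Il-17rc-Cre, the second count falling to 4 without Il-17rc-Cre replicate 2. Oligodendrocyte markers were lower for 8 of 8 genes against Il-17ra-Cre and 1 of 8 against Il-17rc-Cre. In Il-17ra-Cre against Il-17rc-Cre, 7 of 8 oligodendrocyte and 5 of 12 microglial markers were higher. C1qa, a complement gene of microglia, was at 3.10 to 4.95 CPM in Il-17rb-Cre, 199 to 278 CPM in Il-17ra-Cre and 3.91 to 40.0 CPM in Il-17rc-Cre libraries.

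Red blood cell genes were read in the pulled-down RNA, which does not measure how much blood the tissue held. Hba-a1, an alpha globin, was at 1.87 to 2.48 CPM in Il-17rb-Cre, 2.27 to 4.04 CPM in Il-17ra-Cre and 2.45 to 4.61 CPM in Il-17rc-Cre libraries. No gene of that list of 5 was called by edgeR in any comparison, and 0 had an unadjusted p below 0.05. Fibroblast-like markers were lower in Il-17rb-Cre for 3 of 7 tested genes against Il-17ra-Cre and 5 of 7 against Il-17rc-Cre, and their sum stayed under 38.8 CPM in every library. Without Il-17ra-Cre replicate 3 the first count was 5, and without Il-17rc-Cre replicate 2 the second was 3.

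The genes whose levels tracked the 10 most closely were found by correlating log2 CPM with the mean standardised level of the 10 over the 10 libraries. The closest were Lamb2 (r = 0.985, rho = 0.927), Abhd17b (r = 0.976, rho = 0.939), Fbxw8 (r = 0.971, rho = 0.855), Mettl15 (r = 0.971, rho = 0.939), Cspg4 (r = 0.968, rho = 0.988) and Pskh1 (r = 0.966, rho = 0.927). These values describe 10 libraries in 3 groups, and much of each is the gap between the groups. Lamb2, a laminin chain of the vascular basement membrane, averaged 0.893 CPM in Il-17rb-Cre, 16.6 CPM in Il-17ra-Cre and 25.3 CPM in Il-17rc-Cre. Cspg4, the NG2 proteoglycan of pericytes and oligodendrocyte precursors and a member of the mural list, averaged 1.40, 59.7 and 42.8 CPM. Among the 10 genes themselves, r over the libraries was between 0.497, for Mfsd2a with Kdr, and 0.970, for Tek with Slco1a4.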

How the data were processed

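The values are whole-number read counts per gene for 10 libraries, as the authors deposited them, with no normalization. Per the labels' protocols, RNA from anti-GFP pulldown was amplified with SMART-Seq v4, and per the submitters' processing notes reads were aligned with STAR 2.7.5c to GRCm38. Not given in the sources used here are the counting tool, its annotation, the use of strand and any trimming, so reads of overlapping genes and of paralogs may be split or shared.

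Genes were filtered with filterByExpr (20301 kept, 35235 removed), scaled by TMM and tested with the quasi-likelihood F test of edgeR 4.0.16 in R 4.3.3. All 10 libraries entered 1 model with the 3 groups, and p-values were adjusted by Benjamini-Hochberg over all tested genes, with a threshold of 0.05. The common dispersion was 0.239. This test gives no standard error, so each SE is the absolute log2 fold change divided by the square root of its F value. It is an approximation. The procedure was tested on simulated data. Intervals are exact at 95% and, like the floor of 3 counts, cover counting error only. Gene positions come from the mouse annotation of build GRCm38, and promoter sequences from RefSeq.

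The members and lists were chosen with earlier results of these data known. Beside the members, the text names the 3 genes of highest mean CPM of a list, 5 defining markers, the paralogs, and the 6 genes whose log2 CPM (prior count 2, average log2 CPM of at least 1) correlated best with the members, and says where a gene was named otherwise. One gene that this rule names is not reported here. Alternatives were DESeq2 1.42.0, voom with sample quality weights in limma 3.58.1, other scalings and filters, blocks by replicate number, fits on 2 groups and fits without libraries; those on the lists without Il-17ra-Cre replicate 3 or Il-17rc-Cre replicate 2 were chosen after seeing the data. Replicate pairs of a group differed beyond sampling noise, so none was merged.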

Additional observations from a re-analysis of the deposited data

Results flagged for a closer look

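In 4 of the 30 level summaries examined over the 4 Il-17rc-Cre libraries, replicate 2 lay far above the others, by a gap beyond Dixon's critical share of the group's whole range. Chance gives such a gap in about 1 of 20 groups. Slc2a1 was at 82.25 CPM there (gap 0.845 of the range). The summed level of the 10 genes was 323.2 CPM (gap 0.884), that of the endothelial transcription factors 192.6 CPM (gap 0.867) and that of the fibroblast-like markers 38.75 CPM (gap 0.862).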

How the results depend on the processing

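Cldn5, Ly6c1, Slc2a1, Mfsd2a and Abcb1a stayed lower in Il-17rb-Cre in both comparisons in each of the 10 fits that left out 1 library. Of the 10 genes, the number lower ran from 5 to 8 against Il-17ra-Cre and from 5 to 8 against Il-17rc-Cre over those fits. Without both Il-17ra-Cre replicates 1 and 2, the log2 fold change of Cldn5 against the lone library left shrank to -1.92. Those of Pecam1, Kdr, Tek and Slco1a4 turned to 0.31, 1.32, 6.83 and 7.54. Tek and Slco1a4 had 0 reads in that lone library, so the size of their values is not measured. The spread of the lone library was assumed to be like that of the other groups. DESeq2 and limma voom with quality weights also called Pecam1 and Flt1 against Il-17ra-Cre, and DESeq2 called Slco1a4 against Il-17rc-Cre (-4.61, DESeq2 adjusted p = 0.038), as did edgeR on those groups alone (edgeR adjusted p = 0.0159), without Il-17ra-Cre replicate 3 (0.0146) and without its replicates 1 and 2 (0.0205). The genes called between Il-17rb-Cre and Il-17ra-Cre numbered 8268, 4192 without both those libraries and 6541 to 9916 with 1 library left out; against Il-17rc-Cre they numbered 8057 and 5946 to 9151.

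Between Il-17ra-Cre and Il-17rc-Cre the 443 calls, 281 higher and 162 lower (63.4% higher, but 48.9% with DESeq2 size factors and 46.5% with DESeq2), became 692 with a minimum of 1 CPM in 3 libraries, 2101 with DESeq2, 4579 with limma voom and sample quality weights together, 1 with only those groups, 0 without both Il-17ra-Cre replicates 1 and 2 or both Il-17rc-Cre replicates 1 and 3, and 0 to 2886 with 1 library left out. Of the 10 genes, 1 was called with DESeq2, 1 with limma voom and 0 to 1 with 1 library left out. In that comparison the log2 fold change of Tek was -0.014 with upper quartile scaling, -0.011 with no filter and -0.59 with limma voom. It was -9.90 without both Il-17ra-Cre replicates, where 0 Tek reads were left in that group, and -1.41 to 0.64 with 1 library left out. The size of -9.90 is therefore not measured. Slc2a1 and Ly6c1 were at -0.85 and -0.45 without both replicates, and Pecam1 and Kdr at 0.076 and 0.43 with limma voom. With 1 library left out, Slc2a1 ran from -0.21 to 0.44, Kdr from -0.61 to 0.45 and Pecam1 from -2.05 to 0.055. Upper quartile scaling moved the median of all genes by 0.13 and 0.10 in the Il-17rb-Cre comparisons and put Slc2a1 at 16.8 CPM in Il-17rb-Cre. The causes were not tested.

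By replicate number, same-numbered libraries of different groups had r from -0.0826 to 0.181, and differently numbered ones from -0.195 to 0.0838. The highest values, 0.181 and 0.125, were of same-numbered pairs. With so few libraries these values cannot decide whether the numbers pair them. With the replicate number as a block, 6 of the 10 genes were lower in each Il-17rb-Cre comparison, 2 genes in all differed between Il-17ra-Cre and Il-17rc-Cre (1 with the number in the library names as the block), and the log2 fold change of Tek there was -0.25 and -0.28 under the 2 blocks.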
